A study of Mus musculus with 2 samples.

Results

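The neighbouring genes Cdkn2a and Cdkn2b on mouse chromosome 4 encode inhibitors of cell division, and the H3K27me3 mark at this locus was examined in rib chondrocytes. Their regions were all rows of the deposited region list whose gene name is Cdkn2a or Cdkn2b. Of the 2017 regions in the list, 3 named Cdkn2a and 0 named Cdkn2b. No other region lay within 100000 bp of these 3. The cells were wild-type chondrocytes of the CD1 background. They came from ribs of 11 pups (postnatal day 2.5), were pooled and were kept overnight in medium with 5% fetal calf serum according to the sample labels, whereas the study's methods give a higher share of serum. From this pool, 1 library was made after immunoprecipitation of H3K27me3 (ChIP) and 1 from the chromatin before it (2% input). Both libraries share the genotype, strain, age and culture, and neither group had a replicate. The intervals and tests given here therefore cover at most counting error between these 2 libraries, with tags taken as independent, not the variation between animals or cultures.

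H3K27me3 is placed on chromatin by PRC2 and is a mark of silenced genes. In ChIP-seq, DNA fragments that carry the mark are sequenced and counted as tags, and input tags give the background. The Cdkn2a gene is unusual in that it has a pair of start sites and makes a pair of unrelated proteins. The proximal start site gives Ink4a, which blocks the kinases Cdk4 and Cdk6 and so keeps the retinoblastoma protein active. The distal start site lies upstream and gives Arf, which binds Mdm2 and so stabilizes the tumour suppressor Trp53. Cdkn2b encodes Ink4b, an inhibitor of the same kinases that TGF-β is known to induce in many cells. The locus is a classic target of polycomb proteins. It is silent in most young tissues and is derepressed in cellular senescence, when cells permanently stop dividing.

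The list states for each region its distance to the 5′ end of the named gene, and these distances placed the regions along Cdkn2a. The gene is read from the minus strand, so that higher coordinates lie upstream. In the mm9 build, the 3′ region of Cdkn2a was chr4:88923746-88924929 and the middle region was chr4:88925297-88926361. The distances of both led to the same 5′ end, at position 88928096. The 5′ region was chr4:88934311-88935917, and its distance of 4606 bp led to another 5′ end, at position 88940523. The 5′ ends were thus 12427 bp apart. The start sites that RefSeq gives for Cdkn2a in the GRCm38.p6 build were also 12427 bp apart, whereas a 5′ end on the other side of the 5′ region would have left 1609 bp between them. The first of these positions is therefore called the proximal (Ink4a) and the second the distal (Arf) 5′ end. Among the 336 genes with at least 2 regions, 18 (5.36%), Cdkn2a included, had distances that 1 single 5′ end could not give.

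The start site windows are shown because the position of the mark is described relative to them. Each runs from 250 bases before to 50 bases after a RefSeq start site (GRCm38.p6, minus strand), is written 5′ to 3′ and has every CG dinucleotide in capitals. The distal window was chr4:89294570-89294869, the proximal window chr4:89282143-89282442 and the Cdkn2b window chr4:89310983-89311282. No genome sequence of the mm9 build was used, so the sequence of the regions themselves is not shown.
Cdkn2a distal (Arf): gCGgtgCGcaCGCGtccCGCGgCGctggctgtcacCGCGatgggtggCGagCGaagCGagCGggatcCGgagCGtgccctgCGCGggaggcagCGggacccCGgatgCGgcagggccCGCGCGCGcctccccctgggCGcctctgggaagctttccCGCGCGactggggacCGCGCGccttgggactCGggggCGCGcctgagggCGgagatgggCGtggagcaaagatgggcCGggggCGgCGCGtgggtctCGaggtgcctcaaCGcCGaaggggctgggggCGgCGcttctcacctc
Cdkn2a proximal (Ink4a): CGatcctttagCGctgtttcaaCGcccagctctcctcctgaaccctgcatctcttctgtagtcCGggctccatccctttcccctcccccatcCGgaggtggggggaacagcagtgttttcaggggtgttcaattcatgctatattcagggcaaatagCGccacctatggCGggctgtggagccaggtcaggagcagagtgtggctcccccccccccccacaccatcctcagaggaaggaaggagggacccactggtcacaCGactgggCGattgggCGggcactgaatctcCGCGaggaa
Cdkn2b (Ink4b): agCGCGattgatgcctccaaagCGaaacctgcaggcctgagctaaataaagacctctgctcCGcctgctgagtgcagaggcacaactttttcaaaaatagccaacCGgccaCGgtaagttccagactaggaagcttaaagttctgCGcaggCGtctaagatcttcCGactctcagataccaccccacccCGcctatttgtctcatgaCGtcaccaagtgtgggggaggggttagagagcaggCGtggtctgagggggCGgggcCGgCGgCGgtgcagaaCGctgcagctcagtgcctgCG

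All 3 regions lay inside the Cdkn2a gene (distance to the gene 0 bp), and none reached either 5′ end. By comparison, 65.5% of the 1284 regions that name a gene overlapped one. Coming from upstream, the 5′ region lay between the start sites, from 4606 to 6212 bp downstream of the distal one and from 6215 to 7821 bp upstream of the proximal one. The highest point of its ChIP profile was 5141 bp downstream of the distal 5′ end. The middle region lay from 1735 to 2799 bp downstream of the proximal 5′ end, with its highest point at 2350 bp. The 3′ region lay from 3167 to 4350 bp downstream of it, with its highest point at 4128 bp. The middle and 3′ regions were separated by only 367 bp, and the middle and 5′ regions by 7949 bp, a stretch that holds the proximal start site. From the first to the last base, the 3 regions spanned 12172 bp. Whether they fall on exons or introns was not determined, since no exon annotation of this build was used.

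**Figure D1:**
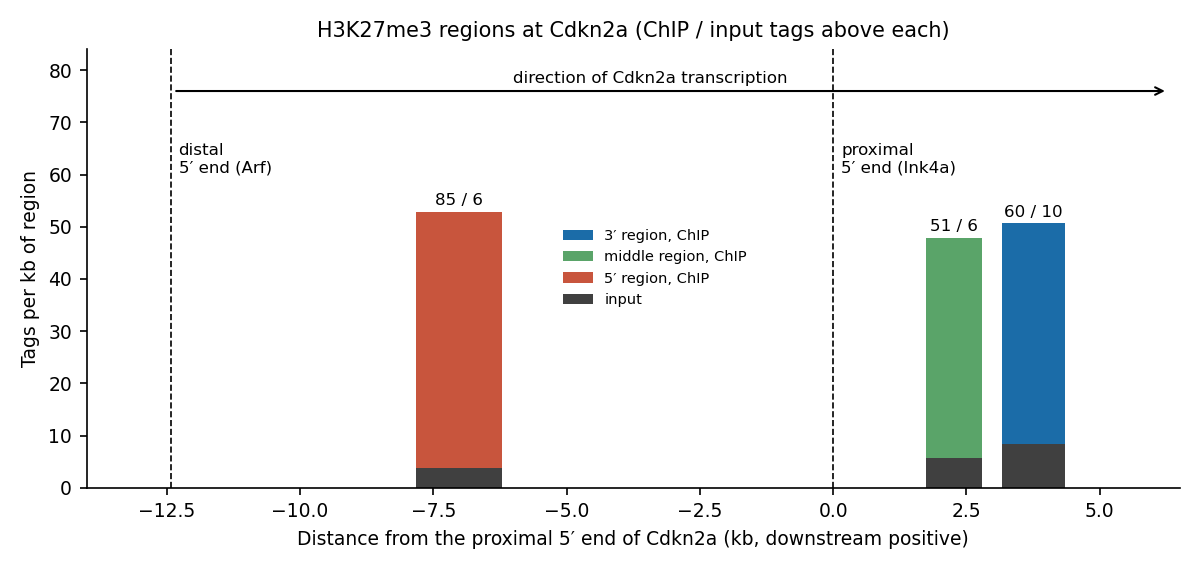
Tags per kb in the 3 H3K27me3 regions of Cdkn2a (vertical axis; coloured bars, ChIP library; dark bars, input library, both drawn from 0) against distance from the proximal 5′ end in kb (horizontal axis, downstream positive; bar width is the length of the region). The 5′ region lies between the dashed lines of both 5′ ends and the other 2 lie downstream of the proximal one, with 47.9 to 52.9 ChIP tags per kb and 3.73 to 8.45 input tags per kb.

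The 5′ region held the most ChIP tags, with 85 ChIP tags and 6 input tags over 1607 bp. The 3′ region held 60 ChIP tags and 10 input tags over 1184 bp. The middle region held 51 ChIP tags and 6 input tags over 1065 bp. Per length, the ChIP library had 52.9, 47.9 and 50.7 ChIP tags per kb from the 5′ to the 3′ region. The input library had 3.73, 5.63 and 8.45 input tags per kb in the same order. The other regions had 41.3 to 104 ChIP tags per kb, with a median of 54.4. Between 11.3% and 40.7% of them lay below each of these 3 regions. The height limit of the list bounds ChIP values from below. The range of these 3 regions is not read as a trait of the locus, and its cause was not tested. Tags in the stretches between the regions are not in the list.

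The ratio of ChIP to input tags, without any scaling for library depth, was 14.2 in the 5′ region (95% Clopper-Pearson interval 6.25 to 39.7). It was 8.5 in the middle region (3.65 to 24.2) and 6.0 in the 3′ region (3.05 to 13.1). These intervals overlap. The largest difference, between the 5′ and 3′ regions, was an odds ratio of 2.35 (95% interval 0.727 to 8.31, two-sided Fisher's exact test, p = 0.119, adjusted p = 0.356 over 3 pairs). The odds ratio was 1.66 between the 5′ and middle regions (0.420 to 6.58, Fisher's exact test, adjusted p = 0.598) and 1.41 between the middle and 3′ regions (0.430 to 5.07, Fisher's exact test, adjusted p = 0.598). With 6 to 10 input tags a region, differences of severalfold between the regions were thus not detectable. Summed over these regions (3856 bp), 196 ChIP tags stood against 22 input tags, a pooled ratio of 8.91 (5.72 to 14.5). All listed regions were called from these same 2 libraries, so their ratios are no independent evidence of the mark. The intervals do not allow for this selection. With input set to the floor that the authors' enrichment uses (9.20 tags per kb), the pooled ratio was 5.52.

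The ChIP profile, the smoothed density of tags, reached a height of 9.59 in the 5′ region, 8.70 in the 3′ region and 8.58 in the middle region. The deposited input heights of these regions were 0.0274, 0.537 and 1.35. Input height did not follow input tags, as the 5′ and middle regions held 6 input tags each. Whether it is the maximum over the region or the input value at the ChIP summit is not stated. The 5′ region had the highest ChIP height and the lowest deposited input height of the 3. In the middle region, the ChIP height was the lowest and the deposited input height the highest. A region was listed only when its ChIP profile rose above a height of 8.0. At a height of at least 10, which 13.1% of all listed regions reached, 0 of the 3 regions would remain. The deposited tag enrichment was 5.75 in the 5′ region, 5.51 in the 3′ region and 5.20 in the middle region. All 3 values rest on a floor of 9.20 input tags per kb that the authors' ratio uses where input is lower, as in 76.9% of all regions. For these regions the floor came to 14.8, 10.9 and 9.80 input tags, against the 6, 10 and 6 that were counted, so the enrichment there ranks ChIP tags per kb only. The caller placed the 5′ region at rank 535, the 3′ region at rank 1053 and the middle region at rank 1408, where rank 1 is the strongest. Their −log10 q-values were 70.6, 46.5 and 36.1.

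**Figure D2:**
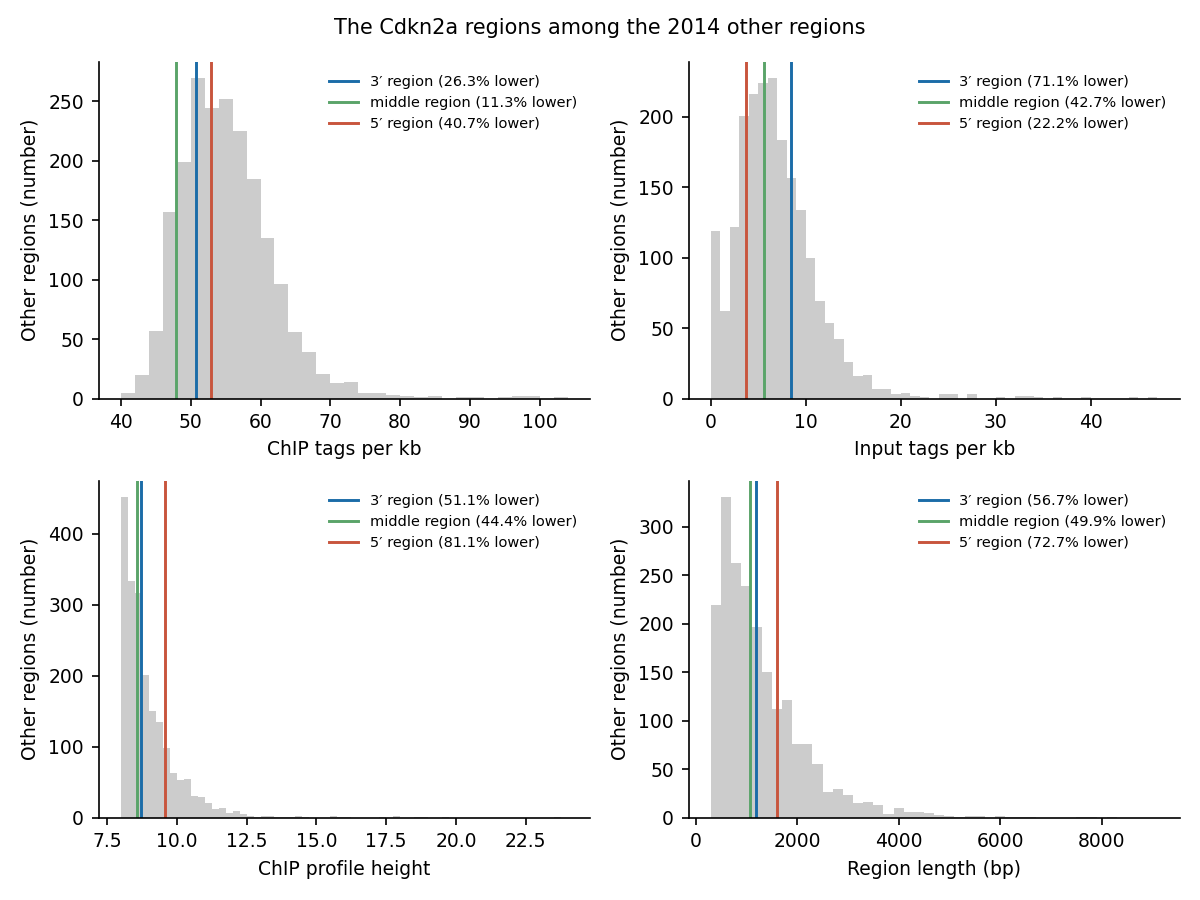
Number of the 2014 other regions (vertical axes, grey bars) by ChIP tags per kb, input tags per kb, ChIP profile height and length in bp (horizontal axes), with a coloured line for each Cdkn2a region. In ChIP tags per kb, 11.3% to 40.7% of the other regions lie below the Cdkn2a regions, and in height 44.4% to 81.1% do.

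Set among the 2014 other regions, all 3 Cdkn2a regions lay in the lower part of the order by ChIP tags per kb. There, 40.7% of the other regions lay below the 5′ region, 26.3% below the 3′ region and 11.3% below the middle region, and the median was 54.4. The shortest listed regions mostly lay above this median, and the order was not adjusted for length. Whether length plays a part in the places of these 3 regions was not tested. A low place in the order is not shown to be a weak mark. In input tags per kb, 22.2% lay below the 5′ region, 42.7% below the middle region and 71.1% below the 3′ region, around a median of 6.22. In length, the middle region was close to the median of 1067 bp, while 72.7% of the other regions were shorter than the 5′ region. In height, 81.1% lay below the 5′ region, 51.1% below the 3′ region and 44.4% below the middle region. In order of height, the 3′ region lay between Dbx1 and a region of Hoxd13 and Evx2, the middle region lay between a region of Asphd1 and Sez6l2 and one that named no gene, and both neighbours of the 5′ region named no gene. In order of tag enrichment, the 3′ region lay between a region of Wt1 and AI314831 and one that named no gene, the middle region between Pax2 and Phactr1, and the 5′ region between Degs2 and Insrr.

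Pooled, the other regions had 7.47 ChIP tags for every input tag (7.35 to 7.58). The odds ratio of the Cdkn2a regions against them was 1.19 (95% interval 0.766 to 1.95, two-sided Fisher's exact test, p = 0.528). Against the 618 other regions that lay inside genes and at least 1000 bp from a 5′ end, as the Cdkn2a regions do, it was 1.16 (0.747 to 1.90, Fisher's exact test, p = 0.595). This comparison set was chosen after seeing the data. Without the 5′ region, the odds ratio against all other regions fell below 1, to 0.929 (0.548 to 1.68, Fisher's exact test, p = 0.783). No difference of the locus from the rest of the list was therefore detected in either direction. Odds ratios inside the interval of 0.766 to 1.95 could not be told from 1 at this depth.

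Summed over its regions, Cdkn2a had more sequence and more ChIP tags in the list than most named genes. Of the 922 genes named, 586 had 1 region, 189 had 2, 73 had 3 and 74 had 4 or more, so that 15.9% had at least 3. Cdkn2a had 3856 bp in regions, more than 83.1% of the other genes, whose median was 1535 bp. Its 196 ChIP tags were more than in 81.8% of the other genes, whose median was 78.0. These sums grow with the number of regions, and 84.1% of the other genes had fewer regions than Cdkn2a. The sums were not compared among genes with 3 regions alone. By height, 26.6% of the other genes had a region above the highest one of Cdkn2a. The nearest region lay 1735 bp from a 5′ end, close to the median of 2129 bp over the other genes, and 45.5% of them had a region nearer to the 5′ end. Within 2500 bp of a 5′ end, where 56.1% of the named genes had a region, Cdkn2a had 1, the middle one. Of the 73 genes with 3 regions, 18 had all of them inside the gene, and 14 of these 18, including Cdkn2a, had none within 1000 bp of the 5′ end.

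Cdkn2b was named by 0 regions, so that no listed region came within 5000 bp of it. In RefSeq its start site is 16413 bp upstream of the distal start site of Cdkn2a, and no other protein-coding gene lies between them. The fewest ChIP tags in any listed region were 20, though no limit on tags is stated. The list holds only stretches with a ChIP height above 8.0, so weaker signal at Cdkn2b was not detectable. The tags of Cdkn2b are not in the list. No ratio or test between the genes could be computed for this reason.

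The flanks of the locus held no listed region within 200000 bp. The next region at lower coordinates was 441839 bp away, at chr4:88481210-88481906 (mm9), and covered the 5′ end of Ifna5, a type I interferon gene. Its 39 ChIP tags stood against 8 input tags (ratio 4.88, 2.25 to 12.1). RefSeq has 4 protein-coding genes between Ifna5 and Cdkn2a. The last of them, Mtap, is the direct neighbour of Cdkn2a, encodes an enzyme of methionine salvage and was not named by any region. The next region at higher coordinates was 256855 bp away, at chr4:89192773-89193790, and named no gene. Its 52 ChIP tags stood against 5 input tags (ratio 10.4, 4.18 to 33.4). Dmrta1, the next protein-coding gene beyond Cdkn2b, was not named either. When regions within 100000 bp of each other were joined, the list formed 803 groups. The Cdkn2a regions made up 1 of the 79 groups of 3 regions, and 431 groups were single regions. For 32.6% of the groups, another group was nearer than the 256855 bp found here (median 474964 bp).

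Among the 7 genes for inhibitors of cyclin-dependent kinases, only Cdkn2a was named by a region of this list. Cdkn2a was chosen as the subject with earlier results of these data known, so its being named is not a result about this family. Cdkn1a, Cdkn1b and Cdkn1c, which encode inhibitors of the Cip and Kip family, and the remaining Ink4 genes Cdkn2b, Cdkn2c and Cdkn2d were not. None of the 14 genes for partners and targets of the Ink4 and Arf proteins was named, among them Cdk4, Cdk6, the D-type cyclins, Rb1, Mdm2 and Trp53. For comparison, 3.61% of the 21896 protein-coding symbols in RefSeq were named, a share that misses genes under older symbols. A gene without a region is not shown to lack the mark.

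Of 14 known regulators of the locus, 2 were named by regions, Tbx2 and Cbx8, against the 3.61% of all protein-coding symbols. Lists of this size are too short to read such counts as a property of the list. Tbx2 encodes a T-box repressor of Arf. Its region, chr11:85653144-85655016 (mm9), lay inside the gene 7027 bp from the 5′ end and held 115 tags of the ChIP library and 10 of the input (ratio 11.5, 6.03 to 24.6). Its height of 10.1 was above that of the 3 Cdkn2a regions. Cbx8 encodes a subunit of PRC1, the complex that reads H3K27me3, and belongs to the proteins that bind and repress Cdkn2a. The region nearest to its 5′ end, 299 bp away at chr11:118902526-118904416, held 99 tags of the ChIP library and 10 of the input (ratio 9.90, 5.16 to 21.3). Another, 3805 bp from the 5′ end, held 36 and 2. The last, with 31 ChIP and 8 input tags (ratio 3.88, 1.74 to 9.76), was also within 5000 bp of the neighbouring gene Cbx2, so these genes share it. Cbx2 and Cbx8 were the 2 of 20 PRC1 and PRC2 genes with a region, and Ezh2, Eed, Suz12 and Bmi1 had none. Of 18 genes linked to senescence and its secreted factors, 1 had a region, a share near that of all symbols. Igfbp3, a binding protein of insulin-like growth factors, was named by a region with 23 tags in the ChIP library and 4 in the input (ratio 5.75, 1.96 to 22.9). The intervals of the 3 Cdkn2a regions overlapped with those of all these regions.

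**Figure D3:**
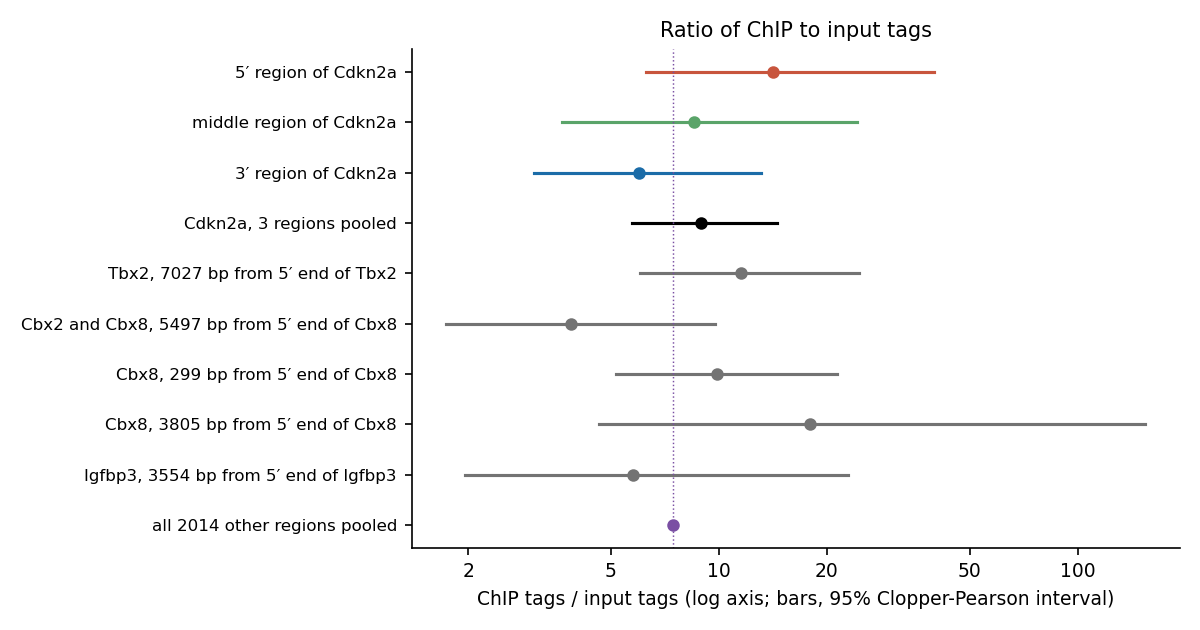
Ratio of ChIP to input tags (horizontal log axis; points, ratio; lines, 95% Clopper-Pearson interval) for the Cdkn2a regions singly and pooled, for the regions of Tbx2, Cbx8, Cbx2 and Igfbp3, and for all 2014 other regions pooled (dotted line, 7.47). The dotted line crosses the interval of every Cdkn2a region, and the intervals of these regions overlap each other.

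The start site windows printed above differ in CG content. The distal window of Cdkn2a held 45 CG dinucleotides and 77% G and C, more CG than 98.1% of the 32841 RefSeq windows. Its ratio of observed to expected CG was 1.04. The Cdkn2b window held 18 CG, 57.7% G and C and a ratio of 0.722, with more CG than 70.3% of the windows. The proximal Cdkn2a window held 12 CG, 60.3% G and C and a ratio of 0.442, with more CG than 60.4% of the windows. The window with the fewest CG was thus that of the proximal start site, with listed regions on both sides of it. In number of CG, though not in position, the window of Cdkn2b, which no region named, lay between those of Cdkn2a. For genes named by a region, the median was 17.0 CG over 765 windows (616 of the 922 genes had one by symbol), against 7.0 for other genes. The motif GGGCGG, a binding sequence of Sp1, was searched on both strands. It occurred 3 times in the distal window and 1 time in each of the other windows, and 35.7% of all windows held it. The E2F sequences TTTCCCGC, TTTCGCGC, TTTGCCGC and TTTGGCGC were searched in the same way. The distal window had 1 match, whereas the proximal and Cdkn2b windows had 0, and 2.27% of all windows held one. The palindromic E-box CACGTG was in 0 of the 3 windows, against 7.15% of all windows. These matches describe the letters only, and none of the windows was covered by a listed region of Cdkn2a.

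**Figure D4:**
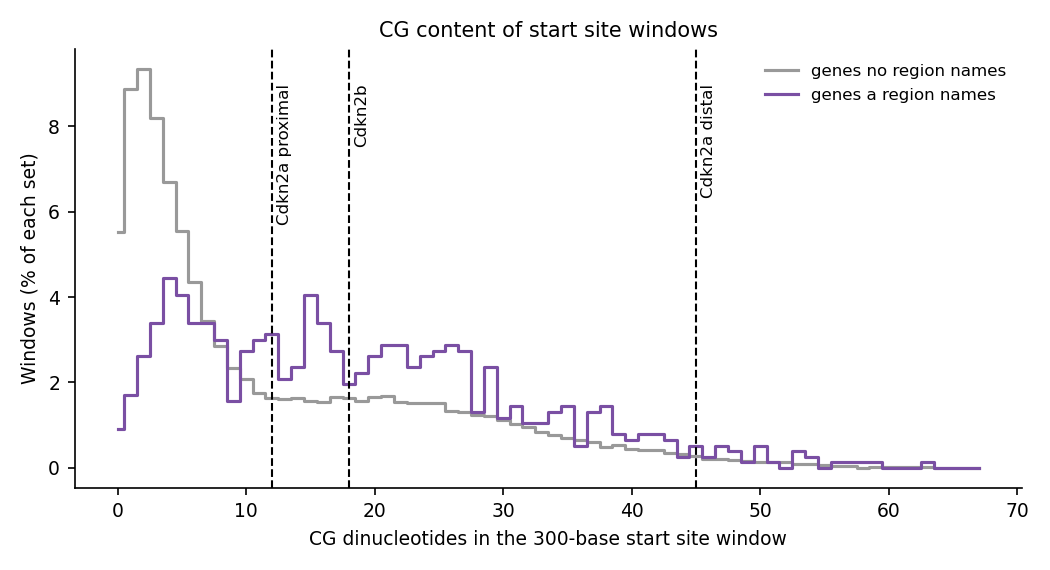
Share of start site windows (vertical axis, % of each set) by their number of CG dinucleotides (horizontal axis) for genes that a region names and for all other genes, with dashed lines at the 12, 18 and 45 CG of the proximal Cdkn2a, Cdkn2b and distal Cdkn2a windows. Windows of named genes reach further to the right (median 17.0 against 7.0), and the distal Cdkn2a window lies near the upper end of both sets.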

How the data were processed

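H3K27me3 ChIP-seq of rib chondrocytes was used, with 1 ChIP and 1 input library. The authors mapped reads to mm9 with the DNA Nexus mapper and called regions with QuEST against input; versions, settings and total depth are not given in the sources used here. The deposited tag counts are whole numbers of ChIP and input tags per region, without normalization (median 56.0 and 7.0). The deposited tag enrichment is the ratio of these counts with a floor of 9.20 input tags per kb, as found from the values. The deposited ChIP heights were taken as the maxima of the smoothed ChIP profile. Whether the deposited input heights are maxima too is not stated. The deposited q-values are given as −log10. Lengths were counted with both end positions included, which makes the floor constant; whether positions count from 0 or 1 is not stated.

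Tags were compared as ratios with 95% Clopper-Pearson intervals and with two-sided Fisher's exact tests, which take tags as independent, although PCR duplicates are not. Input counts in the list were more often even than odd, so input tags may not be independent. The intervals may then be too narrow, and the cause was not tested. Intervals and tests were both tried on simulated data with independent tags. The members and gene lists were chosen with earlier results of these data known. The genes named are the members, those of fixed lists that a region names, and genes next in order of height or enrichment; genes of the lists named as lacking a region were picked as examples. RefSeq tables (GRCm38.p6) gave start site windows, gene order and symbols, and their positions were not compared with those of mm9, only distances between start sites. Of the 922 named genes, 832 matched a RefSeq symbol. Alternatives were limits on q-value (0.01), height (10), distance (2500 bp) and input (2 times the floor), merging within 3000 bp, windows of 50000 and 200000 bp, other comparison sets and, added after seeing the data, leaving out each region. The software was scipy 1.17.1, numpy 2.4.6, matplotlib 3.10.9, pandas 2.3.3 and Python 3.11.15.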

Additional observations from a re-analysis of the deposited data

How the results depend on the processing

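Restricted to 2500 bp around a 5′ end, 1 Cdkn2a region and 5 of the 9 named genes of the fixed lists remained. With a ChIP height of at least 10, these were 0 and 2, and no ratio could be computed. With input set to the floor, the pooled ratio of Cdkn2a was 5.52 instead of 8.91. Leaving out 1 region gave 6.94 to 11.3, and without the 5′ region the odds ratio against all other regions turned to 0.929 (Fisher's exact test, p = 0.783). In the other 7 comparisons of this kind, the one reported included, the odds ratio was 1.10 to 1.52 and p was 0.201 to 0.746 (Fisher's exact test). The shares of regions with fewer ChIP tags per kb than the 3′, middle and 5′ regions were 30.2%, 13.9% and 45.4% among regions within 2500 bp of a 5′ end, and 37.9% for the 5′ region among regions in genes away from 5′ ends. The cause of these shifts was not tested. A q-value limit of 0.01, overlap with the gene, merging within 3000 bp (2 stretches in place of 3) and windows of 50000 or 200000 bp moved no count by over 1.5 times. The planned test of Cdkn2a against Cdkn2b was not run, since Cdkn2b had no region. No paired analysis was possible because each group had 1 library. Depth limits all ratios here, since the 3 regions held 22 input tags in all.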

Other observations

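Because the list measures the mark and not RNA, the labelled cell type could not be checked by expression. The counts of markers that a region named are given beside the share over all protein-coding symbols, 3.61%, and nothing about the markers is read from lists this short. Of 14 chondrocyte markers, among them Col2a1, Acan and Sox9, 0 were named by a region. Of 6 fibroblast and bone markers, Col1a1, a collagen gene of bone and fibroblasts, had a region 280 bp from its 5′ end with 52 ChIP tags and 2 input tags. Of 5 muscle markers, Pax7, the transcription factor of muscle satellite cells, had 5 regions with 55 to 115 ChIP tags and 5 to 14 input tags. Of 4 blood markers, Cd3e, a subunit of the T cell receptor complex, had 32 ChIP tags and 1 input tag in its region. Of 3 endothelial markers, 0 were named. A gene without a region may still carry a weaker mark.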
